A study of Homo sapiens and Mus musculus with 100 samples.

Results

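Vitamin B2 deprivation was repeated at day 12 in 3 separate HepG2 experiments, and the messenger RNA response of those repeats is described here. Within the table of each experiment, the 3 libraries labelled B2_minus were set against the 3 labelled as control, so that 18 of the 100 samples of the series were used. Every fold change was taken within its table, and levels set side by side across tables are a description with no test. In the AhR inhibitor experiment both groups were HepG2 cells without the inhibitor that the labels call AhRinh, deprived of vitamin B2 or not. In the IDO/TDO inhibitor experiment both groups were likewise cells without the agent called IDO_TDOinh. In the guide RNA experiment both groups carried a control guide RNA, and the cells with an AhR guide were left out. All libraries are from day 12, and the labels name the 2 treatments just as control and vitamin B2 deficiency. The sources used here do not give the medium or the names of the inhibitors, nor say whether the solvent of an inhibitor was added to these cells. Nothing says that replicates came from separate cultures, so the p-values measure the spread between these libraries, which may be technical.

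Vitamin B2, riboflavin, enters cells through transporters of the SLC52A family. Riboflavin kinase (RFK) turns it into FMN, and FAD synthetase (FLAD1) turns FMN into FAD. These flavins are held by enzymes of the respiratory chain, of fatty acid oxidation and of redox defence. AhR, the aryl hydrocarbon receptor, is a ligand-activated transcription factor whose best known target is the monooxygenase gene CYP1A1. HepG2 is a human liver tumour line that makes albumin and many other hepatocyte proteins.

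The libraries were read from the 3′ ends of poly(A) RNA, and the deposited values are TPM, a share of each library scaled by transcript length. Each table lists 28035 genes. Reads recovered from the values numbered 5891600 to 8976000 per library in the AhR inhibitor experiment, 11958300 to 14258300 in the IDO/TDO inhibitor experiment and 6067600 to 7177600 in the guide RNA experiment. No pair of replicates agreed within sampling noise, and replicates 1 and 3 of the IDO/TDO inhibitor controls stood farthest apart, with a mean chi-square per gene of 14.8 where sampling alone gives about 1. The 10 most abundant genes held 13.5% to 14.2% of listed TPM in deprived libraries and 20.2% to 21.4% in controls of the AhR inhibitor experiment. They held 15.2% to 16.0% in deprived libraries against 22.1% to 22.3% in controls of the IDO/TDO inhibitor experiment and 15.1% to 15.9% in deprived libraries against 19.9% to 20.6% in controls of the guide RNA experiment. TPM are shares of a total, and the median log2 fold change over all tested genes was above 0, at 0.23, 0.31 and 0.21 in these experiments. Median scaling of the libraries moved it by −0.22, −0.31 and −0.20. List medians below are to be read against those values.

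The cells carried the markers of their label. The summed level of 10 hepatocyte genes, among them ALB and APOA1, was 5879 to 6085 TPM in deprived libraries and 29470.0 to 32030.0 TPM in controls of the AhR inhibitor experiment. It was 8152 to 8416 TPM in deprived libraries against 31260.0 to 33420.0 TPM in controls of the IDO/TDO inhibitor experiment and 6819 to 7143 TPM in deprived libraries against 29220.0 to 30190.0 TPM in controls of the guide RNA experiment. In bulk RNA, fewer cells of a type and less RNA per cell cannot be told apart. Of 14 markers of blood, stromal and endothelial cells of the liver, 3 passed the filter. They were CD68 and CD14 of macrophages and ACTA2, the smooth muscle actin. MARCO was at 0 in all 18 libraries and PTPRC, the common leukocyte antigen, was at most at 0.111 TPM. The sum of the 14 was 94.2 to 102 TPM in deprived libraries and 31.0 to 34.2 TPM in controls of the AhR inhibitor experiment. It was 145.5 to 156 TPM in deprived libraries against 34.8 to 36.5 TPM in controls of the IDO/TDO inhibitor experiment and 126 to 139.9 TPM in deprived libraries against 31.4 to 40.8 TPM in controls of the guide RNA experiment. Without ACTA2 the sums were 11.7 to 14.4 TPM in deprived libraries against 9.10 to 10.2 TPM in controls of the AhR inhibitor experiment, 26.3 to 26.8 TPM in deprived libraries against 14.3 to 18.4 TPM in controls of the IDO/TDO inhibitor experiment, and 25.2 to 28.0 TPM in deprived libraries against 14.2 to 16.1 TPM in controls of the guide RNA experiment. All 18 libraries are labelled as HepG2, a single cell line, and any part of other cells in the results was not tested.

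Deprived cells differed from their controls in most genes that were measured, and mostly in the same way in each repeat. A gene was tested where it reached 1 TPM in at least 3 of the 6 libraries, and called at an adjusted p under 0.05 (limma, Benjamini-Hochberg over all tested genes of a table). In the AhR inhibitor experiment 5461 genes rose (47.8% of 11425 tested) and 2023 fell (17.7%). In the IDO/TDO inhibitor experiment 6000 rose (54% of 11106) and 1508 fell (13.6%), and in the guide RNA experiment 4883 rose (43.2% of 11300) and 1851 fell (16.4%). Counts of list members below are to be read against these shares. The split depended on the scale, since after median scaling 3378 rose and 3248 fell, 3168 rose and 3160 fell, and 2901 rose and 2972 fell. With a change of at least 2-fold also required, 793 genes rose (6.94%) and 413 fell (3.61%) in the AhR inhibitor experiment, 871 rose (7.84%) and 329 fell (2.96%) in the IDO/TDO inhibitor experiment, and 650 rose (5.75%) and 391 fell (3.46%) in the guide RNA experiment.

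Of the 10741 genes tested in all 3 tables, 3828 rose in every experiment (35.6%) and 1004 fell (9.35%). Among them, 413 rose at least 2-fold throughout (3.85%) and 181 fell (1.69%). These 594 are called shared below. Counts of list members that moved in all 3 experiments are to be read against the 35.6% and 9.35%. Entries that can share reads are counted separately, such as the UGT1A genes, or FDPS and RUSC1-AS1, whose values were nearly equal. The 413 made up 54.8% of the AhR inhibitor list of risen genes, 48.2% of the IDO/TDO inhibitor list and 66.8% of the guide RNA list. The 181 made up 46.1%, 59.2% and 49.5% of the lists of fallen genes. Between 89.3% and 97.5% of the genes on a list passed the test in the same direction in either other experiment, at any size. The median change of shared genes was 1.48, 1.53 and 1.43 for those that rose and −1.74, −1.69 and −1.64 for those that fell. Median scaling left 237 shared genes that rose, all among the 413, and gave 315 that fell, which held all 181. Across the 10741 genes, the effects of 2 experiments correlated at Pearson r 0.86 to 0.88 and Spearman rho 0.82 to 0.84. That is a description over genes, which are not independent, and no controls are shared between the experiments.

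**Figure D1:**
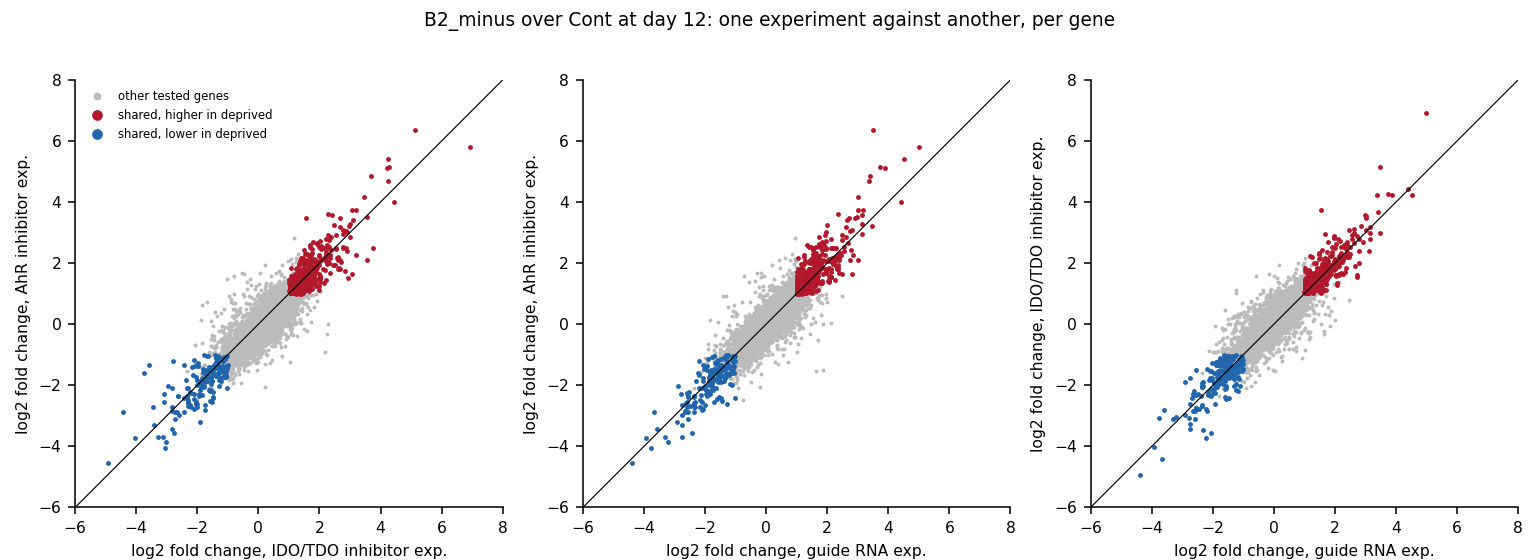
Log2 fold change of each gene, deprived against control, in 1 experiment against another, for the 10741 genes tested in all 3. Red points are the 413 shared genes that rose, blue points the 181 that fell, grey points the other genes, and the black line marks equal effects. Points follow the line in each panel, with r between 0.86 and 0.88.

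The largest shared rise was that of SPP1, osteopontin, a secreted phosphoprotein of bile duct cells and bone (chromosome 4, 87975650 to 87983411, hg38). It stood at 1083, 994 and 976 TPM in deprived libraries and 16.8, 18.7 and 16.4 TPM in controls of the AhR inhibitor experiment. In the IDO/TDO inhibitor experiment it stood at 518, 541 and 559 TPM in deprived and 3.23, 4.13 and 3.01 TPM in control libraries, and in the guide RNA experiment at 503, 469.6 and 488 TPM in deprived and 11.8, 13.8 and 17.9 TPM in control libraries. Every deprived library was far above every control. The log2 fold changes were 5.80 ± 0.06, 6.93 ± 0.09 and 5.00 ± 0.13 (± SE, here and below, n = 3 libraries a group), with adjusted p of 1.26e-12, 6.57e-16 and 5.54e-08.

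AKR1B10 is an aldo-keto reductase that clears reactive aldehydes (chromosome 7, 134527592 to 134541414). It had 342, 284 and 302 TPM in deprived and 2.73, 2.68 and 2.81 TPM in control libraries of the AhR inhibitor experiment. It had 148, 141 and 151 TPM in deprived against 2.85, 3.97 and 2.84 TPM in control libraries of the IDO/TDO inhibitor experiment. It had 185, 178 and 188 TPM in deprived against 15.5, 13.3 and 18.0 TPM in control libraries of the guide RNA experiment. Deprived and control libraries did not overlap, and controls of the guide RNA experiment were the highest of the controls. The changes were 6.37 ± 0.07, 5.14 ± 0.10 and 3.49 ± 0.10 (adjusted p = 1.29e-12, 3.59e-14 and 1.12e-08).

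HAMP encodes hepcidin, the liver hormone that closes the iron exporter ferroportin. It had 172, 174 and 157 TPM in deprived against 3.24, 3.64 and 2.10 TPM in control libraries of the AhR inhibitor experiment, 41.4, 39.8 and 52.6 TPM in deprived against 2.17, 1.42 and 0.799 TPM in control libraries of the IDO/TDO inhibitor experiment, and 77.9, 89.2 and 89.5 TPM in deprived against 3.05, 1.74 and 3.72 TPM in control libraries of the guide RNA experiment. All 9 deprived libraries were above all 9 controls. The changes were 5.42 ± 0.14, 4.24 ± 0.22 and 4.53 ± 0.19 (adjusted p = 3.67e-08, 5.12e-06 and 1.53e-06). TIMP1, an inhibitor of matrix metalloproteinases, had 236, 236 and 208 TPM in deprived against 6.24, 5.84 and 4.70 TPM in control libraries of the AhR inhibitor experiment, 150.0, 139 and 145 TPM in deprived against 6.72, 6.98 and 6.71 TPM in control libraries of the IDO/TDO inhibitor experiment, and 117, 144 and 155 TPM in deprived against 8.17, 11.4 and 6.39 TPM in control libraries of the guide RNA experiment. Its groups did not overlap either, and it rose by 5.11 ± 0.09, 4.22 ± 0.08 and 3.88 ± 0.20 (adjusted p = 7.15e-11, 2.51e-14 and 1.33e-05).

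The other 8 of the 12 largest shared rises among genes with a mean of at least 10 TPM in the deprived groups were of several kinds. AREG, the EGF receptor ligand amphiregulin, rose by 4.01, 4.43 and 4.40 on the log2 scale. ANKRD1, a target of the growth regulator YAP, rose by 4.70, 4.23 and 3.38, and KRT19, a keratin of bile duct cells, by 3.51, 3.57 and 2.98. S100A11, a calcium-binding protein, and the protease inhibitors CSTA and SERPINE2 rose by between 3.00 and 5.16. PTGR1, a prostaglandin reductase, rose by 3.74, 3.18 and 3.16, and CPLX2, known from synaptic vesicle release, by 4.86, 3.68 and 3.40. In all, 49 genes rose by at least 2 on the log2 scale in every experiment, 12 by at least 3 and 3 by at least 4.

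PCK1, the cytosolic enzyme that controls gluconeogenesis (chromosome 20, 57561081 to 57566457), fell most. It had 0.203, 0.498 and 0.618 TPM in deprived and 29.3, 30.3 and 37.6 TPM in control libraries of the AhR inhibitor experiment, 1.59, 1.72 and 1.39 TPM in deprived against 71.5, 84.3 and 77.4 TPM in control libraries of the IDO/TDO inhibitor experiment, and 1.21, 1.28 and 1.08 TPM in deprived against 53.1, 51.8 and 33.2 TPM in control libraries of the guide RNA experiment. Every deprived library was far below every control. The changes were −4.54 ± 0.13, −4.94 ± 0.10 and −4.39 ± 0.17 (adjusted p = 1.61e-09, 3.43e-14 and 2.16e-07), and adding 1 before the logarithm understates a fold at such low levels.

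FABP1, the liver fatty acid-binding protein, had 362, 353 and 359 TPM in deprived and 6264, 5835 and 5826 TPM in control libraries of the AhR inhibitor experiment. It had 645, 638 and 698 TPM in deprived against 5840.0, 5274 and 5470.0 TPM in control libraries of the IDO/TDO inhibitor experiment and 381, 323 and 338 TPM in deprived against 4803, 4332 and 5084 TPM in control libraries of the guide RNA experiment. The groups did not overlap, and the deprived libraries of the IDO/TDO inhibitor experiment kept the most. The changes were −4.06 ± 0.04, −3.06 ± 0.06 and −3.77 ± 0.07 (adjusted p = 1.26e-12, 3.43e-14 and 4.1e-09). AFP, the fetal serum protein, had 341, 325 and 331 TPM in deprived against 4667, 4937 and 5051 TPM in control libraries of the AhR inhibitor experiment, 667, 649.5 and 656 TPM in deprived against 4849, 5612 and 5669 TPM in control libraries of the IDO/TDO inhibitor experiment, and 549.9, 517 and 562 TPM in deprived against 5251, 4823 and 4918 TPM in control libraries of the guide RNA experiment. It was lowest in deprived libraries of the AhR inhibitor experiment, and changed by −3.87 ± 0.05, −3.03 ± 0.06 and −3.20 ± 0.05 (adjusted p = 1.29e-12, 7.95e-14 and 4.38e-10).

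Other large shared falls included TF, the iron carrier transferrin, with log2 fold changes of −2.96, −2.61 and −2.75. ARG1, the last enzyme of the urea cycle, changed by −3.73, −4.03 and −3.92, and CA9, a carbonic anhydrase known for its induction by low oxygen, by −3.42, −2.82 and −3.59. The chemokine CCL20 changed by −3.70, −3.11 and −3.31, and ANGPTL4, an inhibitor of lipoprotein lipase, by −2.84, −2.83 and −2.65. INHA, the inhibin alpha subunit, changed by −2.86, −4.42 and −3.68. FAM13A, SMIM3 and TNNI2, a troponin subunit of skeletal muscle, changed by between −3.69 and −2.59. In all, 40 genes fell by at least 2 on the log2 scale in every experiment, 5 by at least 3 and 1, PCK1, by at least 4.

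**Figure D2:**
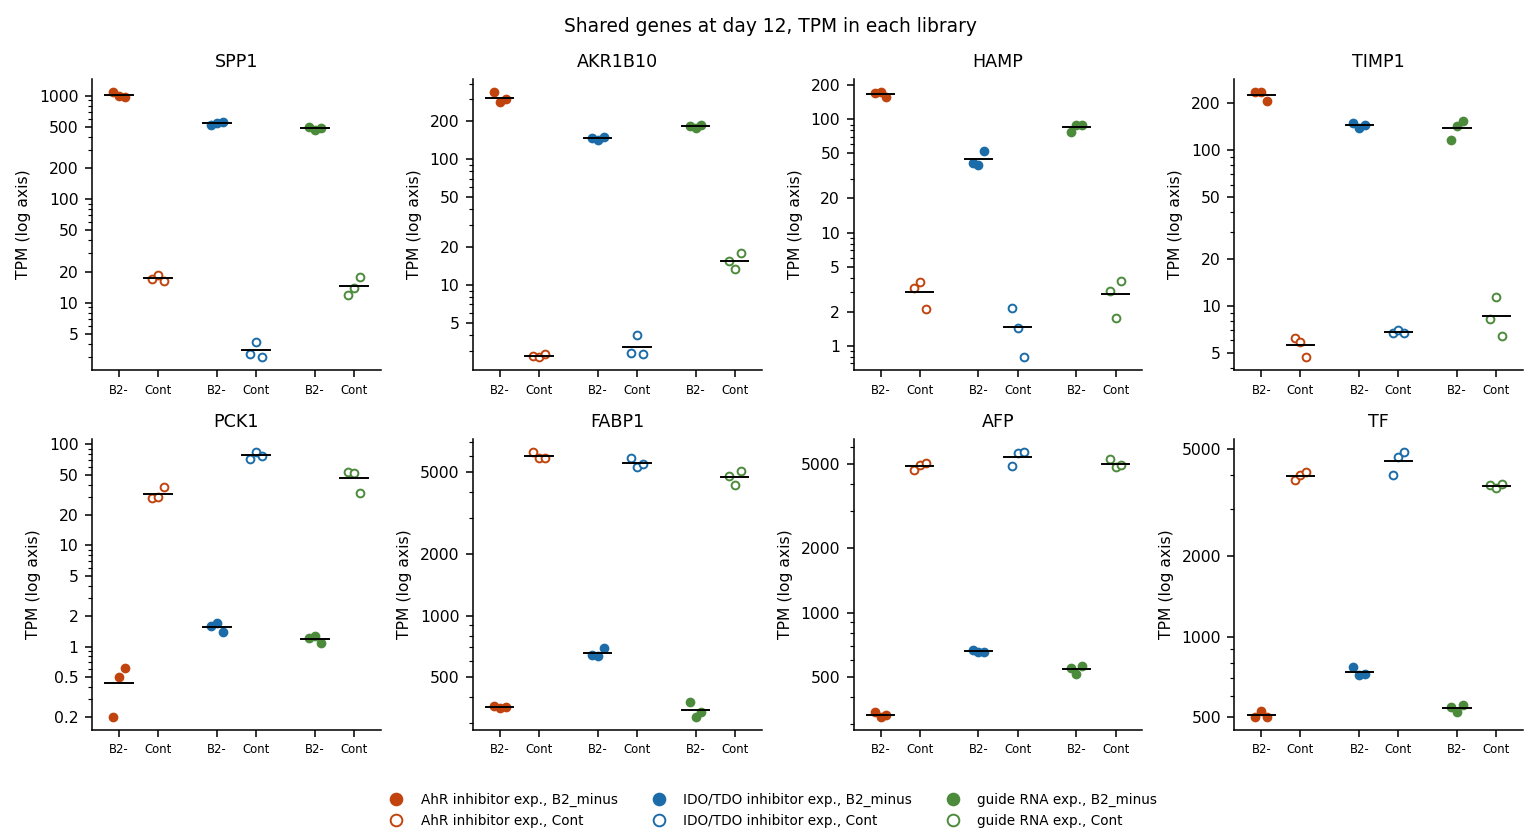
TPM of 8 shared genes in each library on a logarithmic axis, by experiment, with filled points for B2_minus libraries left of open points for control libraries and a line at each group mean. SPP1, AKR1B10, HAMP and TIMP1 are higher in every deprived library and PCK1, FABP1, AFP and TF are lower.

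Genes that answer to AhR were next. CYP1A1 (chromosome 15, 74719542 to 74725610) had 14.3, 15.2 and 14.3 TPM in deprived and 3.03, 2.11 and 2.90 TPM in control libraries of the AhR inhibitor experiment. It had 22.0, 20.7 and 23.9 TPM in deprived against 6.72, 6.20 and 7.00 TPM in control libraries of the IDO/TDO inhibitor experiment and 36.2, 32.0 and 32.4 TPM in deprived against 4.45, 4.40 and 3.75 TPM in control libraries of the guide RNA experiment. The groups did not overlap, and it rose by 2.09 ± 0.11, 1.60 ± 0.09 and 2.73 ± 0.09 (adjusted p = 8.32e-08, 3e-09 and 2.82e-08). NQO1, a flavin-holding quinone reductase under both AhR and NRF2, rose by 1.99 ± 0.06, 2.31 ± 0.07 and 1.49 ± 0.10. The receptor's own transcript AHR rose by 0.95 ± 0.10 and 0.69 ± 0.11 in the inhibitor experiments and had a value of 0.35 ± 0.16 in the guide RNA experiment (adjusted p = 0.0778). TIPARP, a direct AhR target that feeds back on the receptor, did not pass the test in any of the 3, with values of −0.11 ± 0.11, −0.10 ± 0.13 and −0.03 ± 0.13 (adjusted p = 0.414, 0.498 and 0.843). After median scaling it was called lower in the AhR inhibitor and IDO/TDO inhibitor experiments, with −0.33 and −0.41 (adjusted p = 0.019 and 0.0104). CYP1A2, CYP1B1 and the repressor AHRR did not pass the filter. The enzymes that open the tryptophan ring, TDO2, IDO1 and IDO2, averaged at most 0.049 TPM in any group. Further along that pathway KYNU, kynureninase, rose by 0.97, 1.11 and 0.88, and AFMID, which releases kynurenine from its formyl form, changed by −0.41, −0.37 and −0.24.

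All 4 measured genes of riboflavin uptake and flavin synthesis rose in each experiment, by at most 1.00 on the log2 scale. RFK had 24.3, 23.3 and 23.9 TPM in deprived and 10.9, 11.7 and 11.7 TPM in control libraries of the AhR inhibitor experiment, and rose there by 1.00 ± 0.07 (adjusted p = 5.18e-07). It rose by 0.35 ± 0.09 and 0.59 ± 0.08 in the IDO/TDO inhibitor and guide RNA experiments (adjusted p = 0.00345 and 0.000259), and did not pass in the IDO/TDO inhibitor experiment after median scaling (0.04, adjusted p = 0.659). FLAD1 rose by 0.83, 0.73 and 0.76, the transporter SLC52A2 by 0.64, 0.50 and 0.40, and the mitochondrial carrier SLC25A32 by 0.78, 0.83 and 0.52. Median scaling left 4, 2 and 3 of the 4 past the test and none lower. Of 38 nuclear genes of the respiratory chain, 25, 28 and 27 rose and 4, 1 and 2 fell. Of all tested genes 47.8%, 54% and 43.2% rose and 17.7%, 13.6% and 16.4% fell. The list medians were 0.30, 0.49 and 0.38, beside 0.23, 0.31 and 0.21 over all tested genes. After median scaling 14, 16 and 19 of the 38 rose and 10, 6 and 6 fell. The acyl-CoA dehydrogenases and their electron carriers, all flavoproteins, had 3, 7 and 3 of 14 higher and 3, 3 and 3 lower, where 47.8%, 54% and 43.2% of all tested genes were higher. After median scaling 0, 3 and 1 were higher and 7, 5 and 4 lower.

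Genes under NRF2, the factor that answers oxidants and electrophiles, mostly rose. Of 22 tested, 21 rose in the AhR inhibitor experiment, 20 in the IDO/TDO inhibitor experiment and 17 in the guide RNA experiment, and 17 rose in all 3. Of all tested genes 47.8%, 54% and 43.2% rose. Of the 22, 0, 0 and 1 fell, and after median scaling 0, 1 and 3 fell. The list medians were 2.11, 1.86 and 1.56, and 1.88, 1.55 and 1.35 after median scaling. TXNRD1, the flavoenzyme thioredoxin reductase, had 74.4, 77.4 and 74.7 TPM in deprived and 10.5, 9.14 and 9.38 TPM in control libraries of the AhR inhibitor experiment, 31.6, 31.0 and 29.9 TPM in deprived against 4.55, 5.60 and 5.49 TPM in control libraries of the IDO/TDO inhibitor experiment, and 43.8, 39.3 and 45.4 TPM in deprived against 11.3, 12.7 and 12.2 TPM in control libraries of the guide RNA experiment. Its groups lay apart in each, with changes of 2.84 ± 0.07, 2.36 ± 0.09 and 1.74 ± 0.08. SRXN1, which repairs peroxiredoxins, rose by 2.69, 1.79 and 1.84, and GCLM, a subunit of the first enzyme of glutathione synthesis, by 2.59, 2.24 and 1.89. FTL, the ferritin light chain, rose by 2.17, 2.58 and 2.39. The response differed in size, since 17 of the 22 genes rose more in the AhR inhibitor than in the guide RNA experiment and none rose less (test of the difference at adjusted p under 0.05, which 11.4% of all genes passed). AKR1C2, a ketosteroid reductase, rose by 2.83 in the AhR inhibitor experiment, 1.18 in the IDO/TDO inhibitor experiment and 0.95 in the guide RNA experiment. AKR1C genes are near-identical copies that can share reads, so the split between them is uncertain.

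Genes of 2 further stress lists rose in each repeat, where 47.8%, 54% and 43.2% of all tested genes rose. Of 26 genes of the integrated stress response, which is run by the translation factor eIF2 and by ATF4, 23, 25 and 21 rose, 21 of them in all 3, with medians of 0.81, 0.80 and 0.81 (0.59, 0.49 and 0.60 after median scaling). GDF15, a stress hormone on this list and on that of p53, stood at 1648, 1857 and 1980.0 TPM in deprived and 424, 449 and 410.2 TPM in control libraries of the AhR inhibitor experiment. It stood at 3436, 3471 and 3326 TPM in deprived against 557, 549.8 and 494 TPM in control libraries of the IDO/TDO inhibitor experiment and 5055, 5228 and 4902 TPM in deprived against 914, 1052 and 910.0 TPM in control libraries of the guide RNA experiment. It was thus several times higher in each deprived group, and rose by 2.09 ± 0.07, 2.68 ± 0.06 and 2.40 ± 0.06. NUPR1, a stress-induced nuclear protein, rose by 2.40, 2.91 and 2.55, and ASNS, asparagine synthetase, by 1.59, 1.69 and 1.58. The ATF4 transcript itself, whose product is set mainly by translation, had values of −0.09, 0.03 and 0.06 and passed the test in no experiment. After median scaling it was called lower in both inhibitor experiments, with −0.31 in the AhR inhibitor and −0.28 in the IDO/TDO inhibitor experiment (adjusted p = 0.00123 and 0.0177), and with voom, a method for counts, on recovered reads it was called higher in the guide RNA experiment, with 0.17 (adjusted p = 0.0175). Of 18 p53 targets 17 rose in all 3 experiments, with medians of 1.26, 1.15 and 1.20 (1.03, 0.85 and 0.99 after median scaling). CDKN1A, the cyclin kinase inhibitor p21, had 132, 133 and 122 TPM in deprived against 23.2, 25.2 and 26.1 TPM in control libraries of the AhR inhibitor experiment, 176, 175 and 169 TPM in deprived against 36.3, 37.5 and 36.9 TPM in control libraries of the IDO/TDO inhibitor experiment and 177, 179 and 179 TPM in deprived against 34.4, 35.1 and 29.1 TPM in control libraries of the guide RNA experiment. It rose by 2.33 ± 0.06, 2.20 ± 0.07 and 2.41 ± 0.07, without overlap. MDM2, the ubiquitin ligase of p53, rose by 2.17, 2.34 and 2.21, and FDXR, the flavoprotein ferredoxin reductase, by 1.68, 2.35 and 2.38.

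Iron genes moved in both directions. Of 13 tested, 7 rose and 4 fell in all 3 experiments, where 35.6% of all genes rose and 9.35% fell throughout. Beside HAMP and FTL, SLC40A1, which encodes ferroportin, rose by 2.11 ± 0.08, 1.68 ± 0.09 and 1.43 ± 0.07. CP, the ferroxidase ceruloplasmin, stood at 5.97, 8.16 and 7.72 TPM in deprived and 64.3, 71.0 and 73.4 TPM in control libraries of the AhR inhibitor experiment and changed by −3.10 ± 0.10, −2.74 ± 0.10 and −2.55 ± 0.08. TFR2, an iron sensor upstream of hepcidin, changed by −1.78 ± 0.10, −1.71 ± 0.08 and −1.77 ± 0.10, with no overlap of groups in any experiment.

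**Figure D3:**
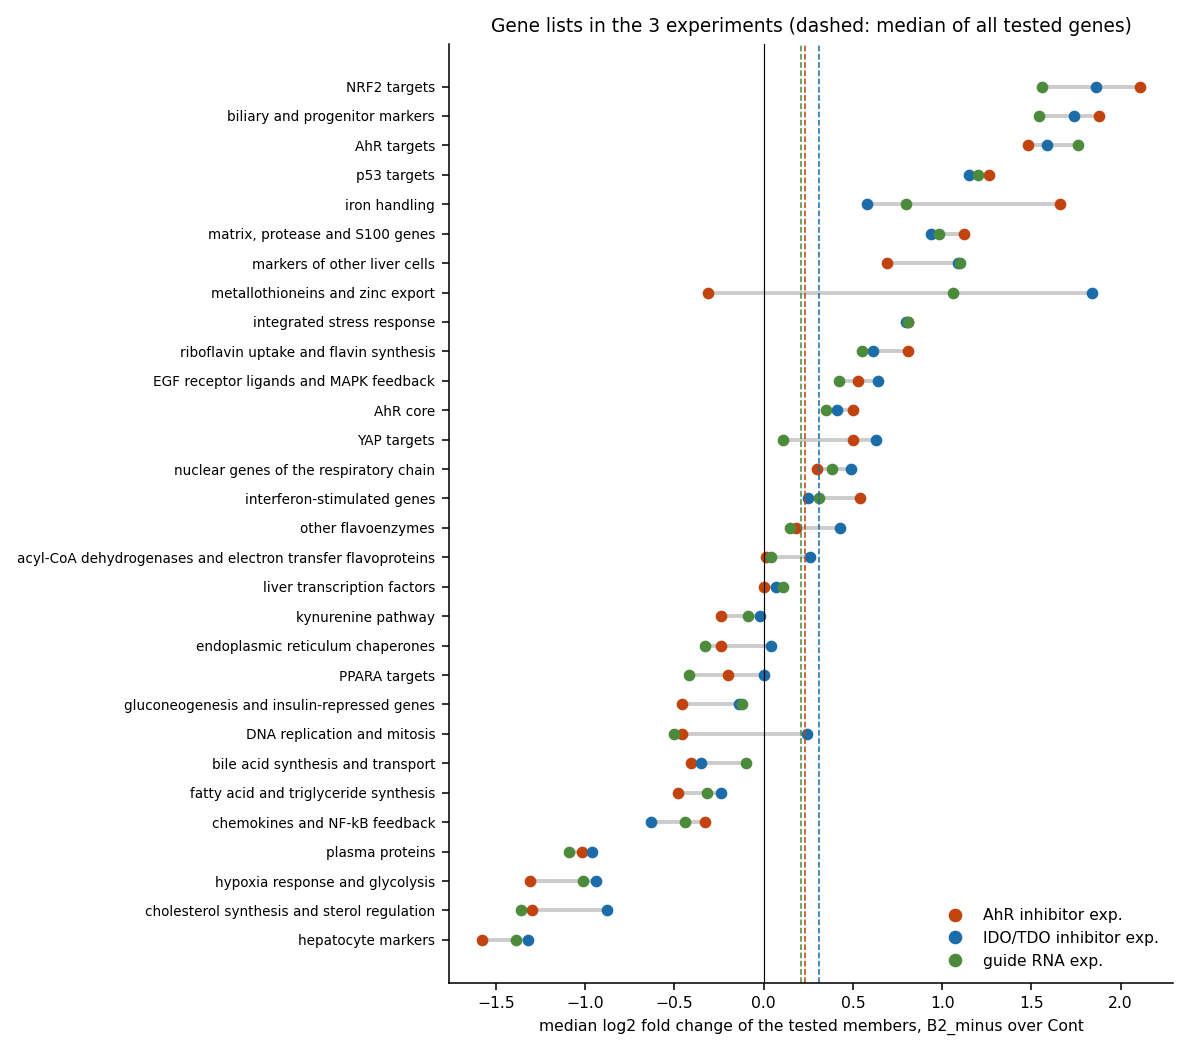
Median log2 fold change of the members of 30 gene lists, deprived against control, by experiment, with dashed lines at the medians over all tested genes. NRF2 and p53 targets lie right of those lines and cholesterol synthesis, hypoxia and plasma protein genes left of them in all 3 experiments, while metallothioneins and DNA replication genes lie on different sides of 0.

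Genes of cholesterol synthesis fell in each experiment, where 17.7%, 13.6% and 16.4% of all tested genes fell. Of 24 genes of synthesis and sterol regulation, 23, 22 and 23 fell, 22 of them in all 3 experiments, with medians of −1.30, −0.88 and −1.36. After median scaling 23 fell in each. FDPS, farnesyl diphosphate synthase (chromosome 1, 155308748 to 155320666), had 42.4, 44.8 and 44.3 TPM in deprived and 274, 274 and 249.6 TPM in control libraries of the AhR inhibitor experiment. It had 62.5, 60.0 and 56.1 TPM in deprived against 249, 248 and 249.7 TPM in control libraries of the IDO/TDO inhibitor experiment and 42.8, 38.6 and 49.1 TPM in deprived against 224, 222.8 and 227 TPM in control libraries of the guide RNA experiment. The groups lay far apart, with changes of −2.57 ± 0.06, −2.05 ± 0.07 and −2.35 ± 0.08 (adjusted p = 1.67e-10, 5.84e-12 and 3.76e-08). The fall of the listed genes was smaller in the IDO/TDO inhibitor experiment, where 18 of the 24 genes differed from the AhR inhibitor experiment (14.8% of all genes did) and 19 from the guide RNA experiment (9.42% of all genes), all in that direction. Between the AhR inhibitor and guide RNA experiments 1 of the 24 differed.

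The FDPS promoter is shown as the example of this list, since its members fell together. The 250 bases before the gene start in RefSeq (GRCh38.p14, chr1:155308616-155308865, plus strand) hold the letters CCAAT 3 times over both strands, in capitals:
FDPS: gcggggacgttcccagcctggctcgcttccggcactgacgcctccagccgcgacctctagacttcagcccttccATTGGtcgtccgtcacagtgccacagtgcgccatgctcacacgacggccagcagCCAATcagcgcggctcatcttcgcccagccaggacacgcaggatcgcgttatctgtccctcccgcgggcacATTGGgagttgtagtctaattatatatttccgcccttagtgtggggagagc
CCAAT, counted on both strands, occurred in the same window of 16 of the 18 matched cholesterol genes (88.9%) and of 37.0% of 27305 genes. The longer sterol motif TCACNCCAC was found in 1 of the 18 and in 1.09% of all genes. RefSeq gene starts can differ from the transcript starts of the deposited tables, and a match of letters is a description, not a bound site.

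Genes of hypoxia and glycolysis fell in 18, 17 and 17 of 19 cases, 17 of them in all 3 experiments, with medians of −1.31, −0.94 and −1.01 (−1.54, −1.25 and −1.21 after median scaling). Among all tested genes 17.7%, 13.6% and 16.4% fell, and 9.35% of those tested in all 3 fell throughout. EGLN3, an oxygen-sensing hydroxylase, changed by −2.58 ± 0.14, −2.29 ± 0.13 and −2.64 ± 0.15. LDHA, which makes lactate, had 90.1, 87.3 and 87.4 TPM in deprived and 213, 192 and 202 TPM in control libraries of the AhR inhibitor experiment and changed by −1.19 ± 0.05, −0.93 ± 0.08 and −0.99 ± 0.10. The exception was SLC2A1, the glucose transporter GLUT1, which rose by 1.17 ± 0.06, 1.09 ± 0.08 and 0.62 ± 0.11. HK2, a hexokinase, had values of −0.61, 0.35 and −0.07 and passed the test in both inhibitor experiments but not in the guide RNA experiment. Its rise in the IDO/TDO inhibitor experiment did not pass after median scaling (0.04, adjusted p = 0.739) or quantile normalization (0.06, adjusted p = 0.61).

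Of the plasma proteins made by liver, 18 of the 28 tested in all 3 fell and 4 rose in every experiment. Among all genes tested in all 3, 9.35% fell and 35.6% rose throughout. ALB, albumin, had 2195, 2130.0 and 2195 TPM in deprived and 12740.0, 12920.0 and 14410.0 TPM in control libraries of the AhR inhibitor experiment, and changed by −2.62 ± 0.05, −2.05 ± 0.06 and −2.35 ± 0.05. The carriers of free haemoglobin and haem went the other way. HP, haptoglobin, stood at 25.5, 19.4 and 19.8 TPM in deprived against 3.48, 4.47 and 3.58 TPM in control libraries of the AhR inhibitor experiment, 29.7, 33.3 and 26.7 TPM in deprived against 4.92, 5.94 and 6.21 TPM in control libraries of the IDO/TDO inhibitor experiment and 16.5, 18.8 and 15.5 TPM in deprived against 5.87, 7.21 and 6.77 TPM in control libraries of the guide RNA experiment, and rose by 2.21 ± 0.12, 2.21 ± 0.11 and 1.23 ± 0.10. HPX, hemopexin, rose by 1.74 ± 0.15, 2.82 ± 0.15 and 1.96 ± 0.21. The 3 fibrinogen chains differed between experiments. FGB, the beta chain, had 222.6, 217 and 236 TPM in deprived against 177, 190.0 and 192 TPM in control libraries of the AhR inhibitor experiment, 409.7, 413 and 397 TPM in deprived against 187.2, 197 and 216 TPM in control libraries of the IDO/TDO inhibitor experiment and 275, 232 and 251 TPM in deprived against 176, 180.3 and 218 TPM in control libraries of the guide RNA experiment. It rose in each experiment, and most in the IDO/TDO inhibitor experiment, by 0.27 ± 0.05, 1.02 ± 0.07 and 0.40 ± 0.09. After median scaling it passed the test in the IDO/TDO inhibitor experiment alone, with 0.05 in the AhR inhibitor and 0.20 in the guide RNA experiment (adjusted p = 0.529 and 0.0601). FGA and FGG, the alpha and gamma chains, changed by −0.43 and −0.37 in the AhR inhibitor experiment, rose by 0.95 and 0.93 in the IDO/TDO inhibitor experiment, and had values of −0.20 and −0.09 in the guide RNA experiment that did not pass the test.

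The experiments were then compared with each other, by the difference of their within-table effects over the combined standard error. A difference of at least 2-fold past that test was found for 135 genes between the AhR inhibitor and IDO/TDO inhibitor experiments (1.24% of 10847), 78 between the AhR inhibitor and guide RNA experiments (0.708% of 11022) and 111 between the IDO/TDO inhibitor and guide RNA experiments (1.02% of 10881). Genes were called specific where they changed at least 2-fold in 1 experiment, by less than 0.5 on the log2 scale in both others, and differed from each. There were 16 in the AhR inhibitor experiment (10 higher and 6 lower, 0.149% of 10741), 17 in the IDO/TDO inhibitor experiment (16 higher and 1 lower, 0.158%) and 8 in the guide RNA experiment (2 higher and 6 lower, 0.0745%). Just 1 gene was called at 2-fold in opposite directions (0.00931%). It was SNORD28, a small nucleolar RNA within a host gene, with 1.22, 2.77 and 1.31 TPM in deprived and 5.31, 7.96 and 7.06 TPM in control libraries of the AhR inhibitor experiment and 5.14, 4.21 and 4.36 TPM in deprived against 1.41, 1.37 and 0 TPM in control libraries of the guide RNA experiment. Reads of a gene inside another cannot be told apart from those of its host.

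Metallothioneins, the small cysteine-rich proteins that hold zinc and copper and are induced by metals through the factor MTF1, differed between experiments. The genes stand side by side on chromosome 16. They are near-identical copies, so the split of reads among them is uncertain. MT2A (chromosome 16, 56608533 to 56609497) had 5701, 5379 and 4943 TPM in deprived and 1557, 1045 and 1137 TPM in control libraries of the AhR inhibitor experiment. It had 4865, 4435 and 4710.0 TPM in deprived against 416, 359 and 421 TPM in control libraries of the IDO/TDO inhibitor experiment and 4463, 5492 and 4923 TPM in deprived against 662, 570.4 and 600.2 TPM in control libraries of the guide RNA experiment. It rose in all 3, by 2.12 ± 0.17, 3.55 ± 0.07 and 3.02 ± 0.08 (adjusted p = 0.000242, 3.43e-14 and 3.31e-08), with no overlap of groups.

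MT1E had 410.0, 393 and 366 TPM in deprived and 639.6, 378 and 463 TPM in control libraries of the AhR inhibitor experiment, which overlap. It had 377, 382 and 419 TPM in deprived against 95.3, 70.4 and 80.8 TPM in control libraries of the IDO/TDO inhibitor experiment and 327, 372 and 359.6 TPM in deprived against 118, 95.9 and 186.6 TPM in control libraries of the guide RNA experiment, where deprived libraries were all higher. Its values were −0.31 ± 0.21, 2.25 ± 0.10 and 1.45 ± 0.26 (adjusted p = 0.256, 5.32e-09 and 0.00697). MT1G had 269, 214 and 224 TPM in deprived against 609.8, 341 and 407 TPM in control libraries of the AhR inhibitor experiment, 292, 281 and 324 TPM in deprived against 74.6, 52.3 and 70.5 TPM in control libraries of the IDO/TDO inhibitor experiment and 176, 205 and 220.3 TPM in deprived against 100.5, 61.8 and 151 TPM in control libraries of the guide RNA experiment. It fell in the AhR inhibitor experiment and rose in the IDO/TDO inhibitor experiment, with values of −0.90 ± 0.25, 2.18 ± 0.13 and 1.02 ± 0.36 (adjusted p = 0.0316, 2.9e-06 and 0.0632). The fall missed the threshold on leaving out deprived replicate 1, 2 or 3 or control replicate 3 (adjusted p = 0.0581 to 0.0984). MT1F fell in the AhR inhibitor experiment, to 66.4, 42.7 and 53.4 TPM in deprived libraries against 293, 174 and 224 TPM in controls, a change of −2.06 ± 0.26 (adjusted p = 0.00214), and had 0.23 ± 0.16 and −0.21 ± 0.21 in the others (adjusted p = 0.234 and 0.432). MT1X had values of −0.15 ± 0.22, 1.49 ± 0.17 and 1.06 ± 0.18, and MT1A rose by 1.51 ± 0.13, 2.94 ± 0.23 and 1.67 ± 0.08.

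Of the metallothioneins and the zinc exporter SLC30A1, 3 rose and 4 fell of 9 tested in the AhR inhibitor experiment, 7 rose and 0 fell of 8 in the IDO/TDO inhibitor experiment, and 5 rose and 0 fell of 7 in the guide RNA experiment. Among all tested genes 47.8%, 54% and 43.2% rose and 17.7%, 13.6% and 16.4% fell. With median scaling the counts for the list were 2 and 4, 6 and 0, and 5 and 0. The effect was smaller in the AhR inhibitor experiment than in the IDO/TDO inhibitor experiment for 7 of 8 genes and than in the guide RNA experiment for 5 of 7. The 3 tables were made separately, so levels are set side by side without a test. For all 9 genes of the list the highest experiment mean was nearer the lowest over the deprived groups (ratios of 1.11 to 4.27) than over the controls (1.35 to 15.7). Group means of MT1E were 353 to 393 TPM over the deprived groups and 82.2 to 494 TPM over the controls, those of MT1G 201 to 299 TPM over the deprived groups and 65.8 to 453 TPM over the controls, and those of MT2A 4670.0 to 5340.0 TPM over the deprived groups and 399 to 1250.0 TPM over the controls. The controls of the AhR inhibitor experiment were the highest for each of these 3 genes.

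The promoters of MT2A and MT1X are shown because the family is known for metal response elements close to its start sites. The core of that element was searched as TGCGCNC or TGCACNC on both strands, in the 250 bases before the RefSeq gene start (GRCh38.p14). Capitals mark the matches in MT2A (chr16:56608334-56608583, plus strand) and MT1X (chr16:56682220-56682469, plus strand):
MT2A: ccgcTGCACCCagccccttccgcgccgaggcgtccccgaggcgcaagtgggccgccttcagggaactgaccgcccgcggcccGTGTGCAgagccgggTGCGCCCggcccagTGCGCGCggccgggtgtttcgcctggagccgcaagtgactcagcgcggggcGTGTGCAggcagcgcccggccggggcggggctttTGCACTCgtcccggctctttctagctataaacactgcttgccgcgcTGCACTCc
MT1X: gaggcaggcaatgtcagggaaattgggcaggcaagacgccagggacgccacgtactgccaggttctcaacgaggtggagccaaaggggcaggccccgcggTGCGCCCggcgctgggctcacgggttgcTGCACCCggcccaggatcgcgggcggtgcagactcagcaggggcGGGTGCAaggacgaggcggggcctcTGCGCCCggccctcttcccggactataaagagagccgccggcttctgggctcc
MT2A held 2 matches to TGCGCNC and 5 to TGCACNC, and MT1X held 2 of each. All 4 genes of the list found in the promoter table held at least 1 match and 3 held several, against 28.5% of all genes with at least 1 and 7.84% with 2 or more.

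**Figure D4:**
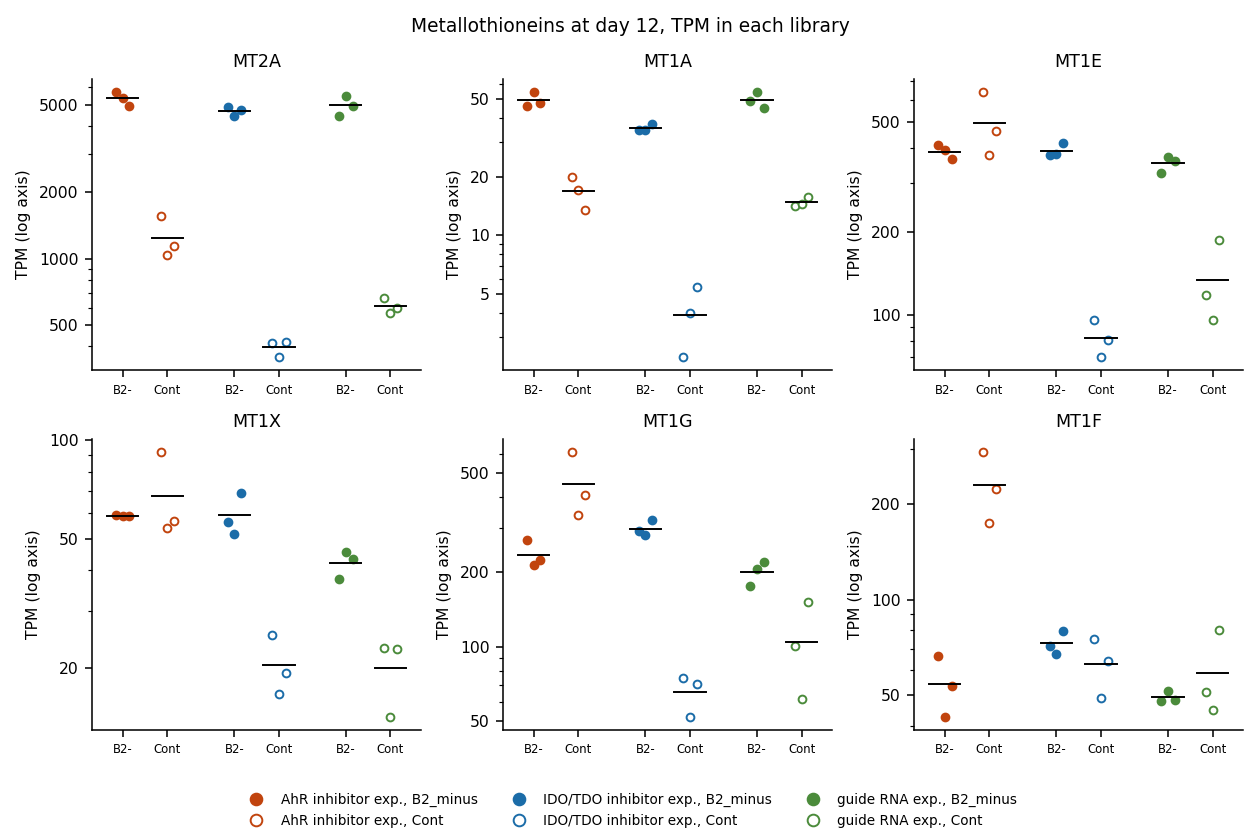
TPM of 6 metallothionein genes in each library on a logarithmic axis, by experiment, with filled points for B2_minus libraries left of open points for control libraries and a line at each group mean. For MT1E, MT1G and MT1F the controls of the AhR inhibitor experiment overlap the deprived libraries or lie above them, and for MT2A and MT1A the deprived libraries lie above the controls in all 3 experiments.

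DNA replication and mitosis was the other group that parted the experiments. Of 22 tested genes 2 rose and 16 fell in the AhR inhibitor experiment, and of 21 genes 2 rose and 15 fell in the guide RNA experiment. In the IDO/TDO inhibitor experiment 10 of 19 rose and 1 fell, where 54% of all tested genes rose and 13.6% fell. Of all tested genes 17.7% fell in the AhR inhibitor experiment and 16.4% in the guide RNA experiment. The medians were −0.46, 0.24 and −0.50 in the AhR inhibitor, IDO/TDO inhibitor and guide RNA experiments. With median scaling the IDO/TDO inhibitor median turned to −0.07, with 7 higher and 6 lower, and the others were −0.68 and −0.71. The difference itself passed its test for 16 of 19 genes against the AhR inhibitor experiment and 19 of 19 against the guide RNA experiment, with the IDO/TDO inhibitor experiment above in all of them. The guide RNA experiment was below the AhR inhibitor experiment for 8 of 21.

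TOP2A, the topoisomerase of dividing cells (chromosome 17, 40388521 to 40417950), had 62.6, 63.0 and 63.6 TPM in deprived and 171, 154 and 139 TPM in control libraries of the AhR inhibitor experiment. It had 34.8, 38.4 and 36.9 TPM in deprived against 34.8, 36.7 and 44.5 TPM in control libraries of the IDO/TDO inhibitor experiment, where the groups overlap, and 24.0, 25.6 and 24.9 TPM in deprived against 92.2, 84.9 and 116 TPM in control libraries of the guide RNA experiment. The controls of the IDO/TDO inhibitor experiment were the lowest of the 3 control groups, as far as levels can be set across tables made separately. The values were −1.28 ± 0.07, −0.07 ± 0.09 and −1.92 ± 0.11 (adjusted p = 1.35e-07, 0.538 and 8.31e-07), and after median scaling that of the IDO/TDO inhibitor experiment was −0.38 (adjusted p = 0.0024). CDK1, the kinase that starts mitosis, had 11.8, 10.5 and 9.14 TPM in deprived against 16.4, 17.0 and 16.2 TPM in control libraries of the AhR inhibitor experiment, 4.54, 5.04 and 5.27 TPM in deprived against 2.54, 2.76 and 2.74 TPM in control libraries of the IDO/TDO inhibitor experiment and 4.06, 4.01 and 3.97 TPM in deprived against 8.98, 8.89 and 10.2 TPM in control libraries of the guide RNA experiment. It fell in the AhR inhibitor and guide RNA experiments and rose in the IDO/TDO inhibitor experiment, with changes of −0.62 ± 0.09, 0.69 ± 0.11 and −1.04 ± 0.09. STMN1, a microtubule destabiliser, behaved likewise, with −0.76 ± 0.10, 0.74 ± 0.10 and −0.75 ± 0.10. The genes that rose in all 3 act in S phase. PCNA, the sliding clamp of DNA polymerase and also a p53 target, rose by 0.72 ± 0.08, 1.48 ± 0.09 and 0.93 ± 0.13. TYMS, thymidylate synthase, had 63.4, 59.5 and 61.2 TPM in deprived against 46.4, 45.0 and 43.8 TPM in control libraries of the AhR inhibitor experiment, 60.1, 65.3 and 65.8 TPM in deprived against 23.5, 23.7 and 22.3 TPM in control libraries of the IDO/TDO inhibitor experiment and 67.3, 62.4 and 59.9 TPM in deprived against 36.0, 32.1 and 43.0 TPM in control libraries of the guide RNA experiment and rose by 0.44 ± 0.06, 1.42 ± 0.08 and 0.76 ± 0.10. Its deprived libraries were alike across tables, and its controls were lowest in the IDO/TDO inhibitor experiment.

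PLK1, a kinase of mitosis, and CDC20, which activates the ligase that ends it, fell most in the guide RNA experiment. PLK1 (chromosome 16, 23678772 to 23690367) had 5.50, 4.49 and 4.22 TPM in deprived and 14.9, 16.9 and 20.4 TPM in control libraries and changed by −1.68 ± 0.13 (adjusted p = 4.45e-06). Its values were −0.37 ± 0.10 in the AhR inhibitor experiment and −0.18 ± 0.10 in the IDO/TDO inhibitor experiment (adjusted p = 0.0091 and 0.131). CDC20 (chromosome 1, 43358955 to 43363202) had 0.572, 1.81 and 1.55 TPM in deprived against 4.78, 4.82 and 8.11 TPM in control libraries of the guide RNA experiment and changed by −1.59 ± 0.26 (adjusted p = 0.00153). It had 0.06 ± 0.17 and 0.45 ± 0.13 in the AhR inhibitor and IDO/TDO inhibitor experiments (adjusted p = 0.776 and 0.00611). Both were at least 2-fold apart from the other experiments. TPX2, a spindle assembly factor, and SMC4, a condensin subunit, were also specific to the guide RNA experiment by the rule, with −1.13 ± 0.12 and −1.05 ± 0.14, and so was NDC80 of the kinetochore, with −1.15 ± 0.20. ERN2, specific too with −1.21 ± 0.15, overlaps the end of PLK1 on the opposite strand (chromosome 16, 23690305 to 23713500), and use of strand in the counting is not stated, so its reads cannot be told apart from those of PLK1.

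The promoters of PLK1 and CDC20 are shown because genes of late cell cycle phases are known for the paired letters TTTGAA and CCAAT. Both motifs were searched on both strands in the 250 bases before the RefSeq gene start (GRCh38.p14), and capitals mark the matches in PLK1 (chr16:23678639-23678888, plus strand) and CDC20 (chr1:43358731-43358980, plus strand):
PLK1: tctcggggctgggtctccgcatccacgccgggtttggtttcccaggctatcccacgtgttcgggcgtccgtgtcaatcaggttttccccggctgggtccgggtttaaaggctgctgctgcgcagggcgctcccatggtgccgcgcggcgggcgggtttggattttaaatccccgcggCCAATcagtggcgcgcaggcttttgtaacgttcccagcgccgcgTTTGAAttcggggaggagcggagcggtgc
CDC20: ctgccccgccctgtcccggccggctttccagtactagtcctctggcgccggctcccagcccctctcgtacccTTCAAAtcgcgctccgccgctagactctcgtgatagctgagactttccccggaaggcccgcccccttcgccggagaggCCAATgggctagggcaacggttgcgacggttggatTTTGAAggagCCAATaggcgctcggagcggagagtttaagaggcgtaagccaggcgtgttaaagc
PLK1 held 1 match to each and CDC20 2 to each. TTTGAA was found in 7 of the 19 matched replication and mitosis genes (36.8%) and in 16.1% of all genes, and CCAAT in 17 of 19 (89.5%) and 37.0%.

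**Figure D5:**
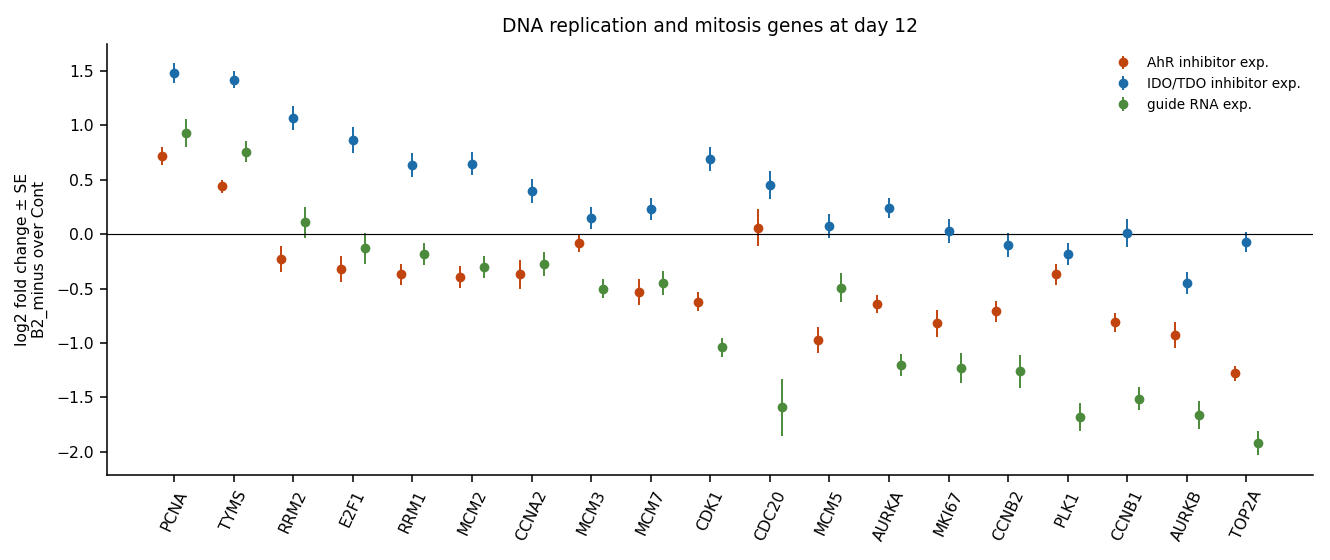
Log2 fold change, deprived against control, with its standard error for the 19 DNA replication and mitosis genes tested in all 3 experiments, a point for each experiment. The points of the IDO/TDO inhibitor experiment lie above those of the guide RNA experiment for every gene, and PCNA and TYMS are above 0 in all 3.

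Other genes set 1 experiment apart. In the AhR inhibitor experiment TSC22D3, a glucocorticoid-induced leucine zipper protein, had 12.3, 12.2 and 13.0 TPM in deprived and 1.85, 2.37 and 3.50 TPM in control libraries. It had 14.3, 12.7 and 13.0 TPM in deprived against 11.2, 10.9 and 12.3 TPM in control libraries of the IDO/TDO inhibitor experiment, where controls were nearly as high as deprived libraries, and 7.05, 6.38 and 6.22 TPM in deprived against 4.85, 4.48 and 7.86 TPM in control libraries of the guide RNA experiment. It rose by 1.94 ± 0.15 in the AhR inhibitor experiment (adjusted p = 1.97e-06) and had 0.20 ± 0.09 and 0.20 ± 0.17 in the others. BAMBI, a decoy receptor of the TGF-beta family, had 1.30 ± 0.20, 0.25 ± 0.10 and 0.18 ± 0.11, and AKR1C1 had 1.25 ± 0.07, 0.21 ± 0.06 and −0.09 ± 0.08. KRTAP3-1, a keratin-associated protein of hair, had 1.59 ± 0.15, 0.40 ± 0.24 and −0.08 ± 0.32.

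Among the 17 genes specific to the IDO/TDO inhibitor experiment were RRM2, a ribonucleotide reductase subunit, with 1.07 ± 0.11, ORC6 of the origin recognition complex, with 1.18 ± 0.11, and MAD2L1 of the spindle checkpoint, with 1.12 ± 0.13. TK1, thymidine kinase, was specific too and had 6.27, 6.58 and 7.23 TPM in deprived and 2.74, 2.43 and 2.93 TPM in control libraries of that experiment, and 7.77, 7.68 and 8.15 TPM in deprived against 11.3, 9.21 and 10.2 TPM in control libraries of the AhR inhibitor experiment. The values were −0.33 ± 0.09, 1.06 ± 0.11 and −0.34 ± 0.20. HEY1, a repressor downstream of Notch, was the 1 that fell, with −0.21 ± 0.14, −1.28 ± 0.13 and −0.33 ± 0.21. Without control replicate 3 of this experiment the count of specific genes was 28. It was far smaller after median scaling, quantile normalization or with a pseudocount of 4. With a pseudocount of 0.25 or voom it was larger, as the closing section lists. Which genes are specific to this experiment thus depended on the scale. RABGGTB, a subunit of the enzyme that attaches lipid to Rab proteins, had 30.8, 50.6 and 50.2 TPM in deprived and 19.7, 18.8 and 11.1 TPM in control libraries, with deprived replicate 1 and control replicate 3 the lowest of their groups. The same holds for PSMC3IP, with 9.75, 20.1 and 20.3 TPM in deprived against 5.60, 5.50 and 3.26 TPM in control libraries of the IDO/TDO inhibitor experiment.

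UBD, a ubiquitin-like protein induced by inflammatory signals, and AKR1B1, the aldose reductase, fell in 2 experiments and not in the AhR inhibitor experiment. UBD had 78.8, 66.8 and 65.9 TPM in deprived and 62.5, 64.8 and 63.3 TPM in control libraries of the AhR inhibitor experiment, 20.2, 20.1 and 22.0 TPM in deprived against 79.7, 76.8 and 82.3 TPM in control libraries of the IDO/TDO inhibitor experiment and 26.2, 22.0 and 28.9 TPM in deprived against 80.3, 98.2 and 108 TPM in control libraries of the guide RNA experiment. Its deprived libraries were slightly above the controls in the AhR inhibitor experiment and far below them in both others. The values were 0.14 ± 0.07, −1.89 ± 0.08 and −1.85 ± 0.13, and the effect in the AhR inhibitor experiment lay above the others by 2.03 ± 0.10 and 1.99 ± 0.15 (adjusted p = 1.82e-12 and 7.02e-08). UBD has 7 copies in the annotation of the table. AKR1B1 had 49.5, 42.1 and 47.5 TPM in deprived against 33.1, 32.0 and 39.8 TPM in control libraries of the AhR inhibitor experiment, 27.0, 27.1 and 33.0 TPM in deprived against 81.9, 76.0 and 80.0 TPM in control libraries of the IDO/TDO inhibitor experiment and 27.6, 26.1 and 34.0 TPM in deprived against 70.8, 58.6 and 50.6 TPM in control libraries of the guide RNA experiment. It rose in the AhR inhibitor experiment and fell in both others, with changes of 0.40 ± 0.09, −1.43 ± 0.09 and −1.01 ± 0.14. The rise did not pass after median scaling (0.18, adjusted p = 0.163) or quantile normalization (0.20, adjusted p = 0.11).

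Endoplasmic reticulum chaperones leaned lower in the AhR inhibitor and guide RNA experiments, with 11 and 11 of 18 down and 2 and 1 up, and were split in the IDO/TDO inhibitor experiment, with 7 down and 6 up (10 down and 2 up after median scaling). Of all tested genes 17.7% fell in the AhR inhibitor, 16.4% in the guide RNA and 13.6% in the IDO/TDO inhibitor experiment. HSP90B1, the chaperone GRP94, fell in each, with changes of −1.19 ± 0.05, −0.71 ± 0.08 and −1.18 ± 0.06, while CALR, calreticulin, had −0.50, 0.18 and −0.33. The effect in the IDO/TDO inhibitor experiment was above that of the AhR inhibitor experiment for 9 of 18 and above that of the guide RNA experiment for 11 of 18.

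Day 12 of the HepG2 time course, with its own 3 deprived and 3 control libraries, lies outside these experiments and was fitted in the same way. There 4060 genes rose (35.6% of 11420) and 2250 fell (19.7%), of which 431 (3.77%) and 267 (2.34%) did so at 2-fold. Of the 404 shared risen genes tested in it, 399 rose and 252 did so at 2-fold, and of the 172 shared fallen genes 166 fell and 124 did so at 2-fold. No shared gene was called the other way. Of the genes specific to 1 of the 3 experiments, 14 of the 16 that rose in the IDO/TDO inhibitor experiment also rose in the time course, among them RRM2 by 1.48, TK1 by 1.25, ORC6 by 0.98 and MAD2L1 by 0.83. Of the 10 that rose in the AhR inhibitor experiment 4 rose there, KRTAP3-1 by 2.25 (adjusted p = 5.57e-05), and 1 fell, TSC22D3 by −0.69 (adjusted p = 4.35e-05). Of the 6 that fell in the AhR inhibitor experiment 5 were tested there. Of these, 2 fell and 2 rose, MT1F by 0.75 and TMEM141 by 0.74. Of the 6 that fell in the guide RNA experiment 0 fell and 2 rose. The medians of the shared genes in the time course were 1.18 and −1.36. Shared genes were chosen by size in the 3 experiments and not in the time course, so these medians cannot show a weaker response there. Of the groups that parted the experiments, all 9 metallothionein and zinc export genes rose in the time course, and 15 of 21 replication and mitosis genes rose with 0 lower. Of the hypoxia and glycolysis genes 3 rose and 7 fell of 19, with a median of −0.15.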

How the data were processed

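The authors deposited TPM per gene, written by HOMER per the file headers. The submitters' processing notes list STAR, HOMER and Bowtie2, and hg38 and mm10 as builds, without saying what each was used for. TPM divides by transcript length although a 3′ kit was used, so levels are compared between libraries and not between genes. Columns were matched to samples by name, and 18 columns of earlier days in the time-course table were not used. Within each contrast all columns carry the same dates in their headers, and some headers hold more than 1 date. The members and gene lists were chosen with earlier results of these data known.

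Each contrast was fitted to its own 6 libraries with limma 3.58.1 (R 4.3.3, the data.table package at version 1.17.8) on log2 of TPM plus 1. The model had 1 mean per group, with trended and robust empirical Bayes moderation, for genes at 1 TPM or more in at least 3 libraries. Tests were two-sided with Benjamini-Hochberg adjustment over all tested genes, at 0.05. Because 1 was added to each TPM before the log2, fold changes of low genes are understated. A difference between experiments is that of 2 fold changes over the root of their summed squared moderated standard errors, with summed degrees of freedom, adjusted within each of 3 pairs. On simulated data, log2 changes of 1 were found in 96.9%, 97.2% and 98.4% of cases in the AhR inhibitor, IDO/TDO inhibitor and guide RNA experiments. A count test was not the main test because the tables hold TPM. Reads were recovered as whole multiples of the smallest value per library (100% of the values checked lay within 0.1 of a whole number) and tested with voom as an alternative.

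Named genes were CYP1A1, AHR, TIPARP and NQO1, the 12 shared genes with the largest smallest change in each direction, up to 4 specific genes in each direction per experiment, 4 members per list by mean change, and the 6 largest differences per pair, mostly with a mean of at least 10 TPM in the higher group. Other genes were named after their values were seen, and some genes are not reported here. Replicate numbers carry no stated pairing, and same-numbered libraries did not deviate together (correlations of −0.079 to 0.065). Alternatives were other pseudocounts, filters, scalings, fold limits, a replicate block and leaving out each library. Promoter letters were counted with Python 3.11.15 (pandas 2.3.3, numpy 2.4.6, scipy 1.17.1), and figures were drawn with matplotlib 3.10.9.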

Additional observations from a re-analysis of the deposited data

Results flagged for a closer look

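Effects of deprivation that differed between experiments by a test of the difference itself are listed here. At 2-fold, 135 genes differed between the AhR inhibitor and IDO/TDO inhibitor experiments, 78 between the AhR inhibitor and guide RNA experiments and 111 between the IDO/TDO inhibitor and guide RNA experiments.

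The log2 fold change in the AhR inhibitor experiment minus that in the IDO/TDO inhibitor experiment was −3.08 for MT1G, −2.56 for MT1E, −2.29 for MT1F, 2.46 for the small nucleolar RNA SNORD68, 2.03 for UBD and 1.83 for AKR1B1. Its difference from the guide RNA experiment was −1.93 for MT1G, −1.85 for MT1F, −1.76 for MT1E, 2.88 for AKR1B10, 1.99 for UBD and 1.88 for AKR1C2. The fold change in the IDO/TDO inhibitor experiment minus that in the guide RNA experiment was 1.93 for SPP1, 1.86 for TOP2A, 1.65 for AKR1B10, 1.56 for PSMC3IP, 1.49 for STMN1 and −1.88 for SNORD38C. SPP1 and AKR1B10 rose in all 3 experiments, so those differences are of size alone. Within the IDO/TDO inhibitor experiment, the calls of SNORD68, SNORD38C and PSMC3IP each missed the threshold on leaving out some single libraries. The limma adjusted p were then 0.0685 to 0.0869, 0.0642 to 0.113 and 0.0552 to 0.0559. Of the metallothioneins listed here, MT1G alone had effects that passed the test in opposite directions in the AhR inhibitor and IDO/TDO inhibitor experiments. MT1H, with group means of at most 2.67 TPM and so not listed, also passed in both. It was lower in the AhR inhibitor and higher in the IDO/TDO inhibitor experiment. The fall of MT1G in the AhR inhibitor experiment missed the threshold on leaving out 1 of 4 of the 6 libraries (adjusted p = 0.0581 to 0.0984).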

How the results depend on the processing

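Values are given in the order AhR inhibitor, IDO/TDO inhibitor and guide RNA experiment, and pairs of experiments in the order AhR inhibitor with IDO/TDO inhibitor, AhR inhibitor with guide RNA, IDO/TDO inhibitor with guide RNA. A pseudocount of 0.25 gave 1371 genes higher at 2-fold in the IDO/TDO inhibitor experiment, 261, 161 and 199 differing, 39 specific to the IDO/TDO inhibitor experiment and 0 in opposite directions. A pseudocount of 4 gave 328 and 224, 349 and 173, and 276 and 207 higher and lower at 2-fold, 178 and 110 shared, 45, 30 and 29 differing, 8, 3 and 1 specific, and 0 opposite. Without a filter 4 were specific to the guide RNA experiment. A filter of 5 TPM gave 3803 higher in the IDO/TDO inhibitor experiment, 76, 50 and 52 differing, 9 and 3 specific to the AhR inhibitor and guide RNA experiments, and 0 opposite. Quantile normalization gave 3486 and 3135, 3396 and 2936, and 3116 and 2825 higher and lower, 462 and 621, 420 and 557, and 400 higher alone at 2-fold, 248 and 288 shared, and 10 and 4 specific to the AhR inhibitor and IDO/TDO inhibitor experiments. Median scaling gave 3378 and 3248, 3168 and 3160, and 2901 and 2972 higher and lower, 451 and 642, 387 and 608, and 377 and 588 at 2-fold, 237 and 315 shared, 2 opposite, and 2 specific to the IDO/TDO inhibitor experiment. With voom on recovered reads 1550, 1896 and 1479 were higher at 2-fold, 845 shared, 303, 176 and 208 differing, 47 specific to the IDO/TDO inhibitor experiment and 2 opposite. The cause of these changes was not tested, apart from the shift of all genes under scaling.

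A limit of 0.25 for little change elsewhere left 5, 7 and 1 specific genes, and a limit of 1.0 gave 66, 62 and 26. A fold limit of 0.5 on the log2 scale gave 3160 and 1117, 3670 and 871, and 2777 and 1101 higher and lower, with 1908 and 558 shared. A limit of 2 gave 116 and 70, 90 and 62, and 82 and 58, with 49 and 40 shared. Leaving out 1 library gave 316 to 438 shared genes higher and 146 to 185 lower, 13 to 19, 15 to 28 and 6 to 9 specific, and 1 to 2 opposite, the 28 being without IDO/TDO inhibitor control replicate 3. The replicate block, whose numbers do not pair the samples, gave 412 and 180 shared genes and 2 opposite. Of 426 named values, 8 passed the test only without the block and 3 only with it, and 0 changed sign.

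Directions that turned were all of small effects. In the IDO/TDO inhibitor experiment quantile normalization gave −0.07 for BAMBI, −0.25 for HNF4A, −0.24 for HSD3B7, −0.04 for PMVK and −0.28 for TP53INP1. Median scaling gave −0.10 for AKR1C1, −0.28 for ATF4, −0.06 for BAMBI, −0.25 for CTGF, −0.29 for HNF4A, −0.27 for HSD3B7, −0.03 for PGD, −0.05 for PMVK and −0.29 for TP53INP1, and −0.01 for HYOU1 in the guide RNA experiment. Of the other values of named genes, 5978 kept their direction and side of the threshold, 150 no longer passed and 124 newly passed.

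Low genes such as SNORD28 rest on few reads.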
